A study of Mus musculus with 28 samples.

Results

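Scn4a, Scn4b, Clcn1, Kcnn3, Kcnj2 and Kcnj11 encode ion channel subunits that set how readily a skeletal muscle fiber fires. They were named as a set of adult and denervation-type sodium, chloride and potassium channel genes, by symbol. Each symbol matched 1 Ensembl identifier in both count tables, so all 6 members were found among the 55359 genes that both tables hold. The identifiers are ENSMUSG00000001027 for Scn4a, ENSMUSG00000046480 for Scn4b, ENSMUSG00000029862 for Clcn1, ENSMUSG00000000794 for Kcnn3, ENSMUSG00000041695 for Kcnj2 and ENSMUSG00000096146 for Kcnj11. All 6 passed the filter on low counts in both cohorts.

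RNA was sequenced from the tibialis anterior, a hindlimb muscle, of 28 mice of strain C57BL/6N aged 8 weeks, in 7 groups of 4. In the Dnm2 cohort, WT mice and Dnm2 S619L/+ mice, which carry 1 copy of the S619L allele of the membrane-fission GTPase dynamin 2, received either placebo or a diet containing tamoxifen. The Bin1 cohort held WT mice on placebo and Bin1 mck-/- mice on placebo or the tamoxifen diet. In the latter mice the deletion of Bin1, which encodes the membrane-curving protein amphiphysin 2, is driven in muscle by the mck promoter, so other cells of the tissue keep the gene. Both genotypes are models of centronuclear myopathy, and tamoxifen is a selective estrogen receptor modulator. No WT mice on tamoxifen were sequenced in the Bin1 cohort. Libraries of the Dnm2 cohort were made from 300 ng of RNA fragmented for 2 minutes and those of the Bin1 cohort from 350 ng fragmented for 8 minutes, so cohort and library protocol cannot be told apart. The mouse numbers below are those of the labels, which run from 5 to 8 in the WT group of the Bin1 cohort.

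The depth, as the sum of counts over genes, had a median of 46755822 per library in the WT placebo mice of the Dnm2 cohort (15586333 to 109710886). It was 29935352 in the WT mice on tamoxifen (20989876 to 46556589), 22530455 in the S619L/+ mice on placebo (21520228 to 41940004) and 25591349 in the S619L/+ mice on tamoxifen (21588926 to 33651769). In the Bin1 cohort the median was 32763314 in WT mice (30776801 to 35136327), 31196826 in mck-/- mice on placebo (29063032 to 33654116) and 29328514 in mck-/- mice on tamoxifen (24671835 to 30538990). The smallest count behind any member in any mouse was 46, for Kcnn3 in WT placebo mouse 3 of the Dnm2 cohort. Levels are given in CPM, counts per 1000000 counts of the library after scaling by TMM, a trimmed mean of ratios that puts the libraries of a cohort on a common scale. Differences were tested in edgeR over all genes of a cohort, and a gene is called where its adjusted p was under 0.05.

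A muscle action potential is carried by voltage-gated sodium channels and is damped and ended by chloride and potassium conductances of the surface membrane and the transverse tubules. Adult fibers rely on the sodium channel Scn4a and the chloride channel Clcn1, and mutations of these genes cause periodic paralysis and myotonia. Denervated and immature fibers express the calcium-activated potassium channel Kcnn3, while mutations of Kcnj2 cause Andersen-Tawil syndrome, in which periodic paralysis occurs with cardiac arrhythmia.

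Bin1 itself was read first as a check of the labels. Its level was 549, 521, 533 and 555 CPM in the WT mice of the Bin1 cohort, 62.0, 51.6, 52.2 and 58.7 CPM in mck-/- mice on placebo and 41.2, 36.0, 49.5 and 36.9 CPM in mck-/- mice on tamoxifen. Every mck-/- mouse lay below every WT mouse. In the Dnm2 cohort it was 487, 499, 505 and 508 CPM in WT placebo mice, 351, 338, 446 and 480.2 CPM in WT mice on tamoxifen, 804, 1085, 719.6 and 887 CPM in S619L/+ placebo mice and 695, 518, 532 and 714 CPM in S619L/+ mice on tamoxifen. No library of this cohort had a level near those of the mck-/- mice. The muscle identity of the samples was read from 10 myofiber markers, whose summed level was 170851, 210791, 205388 and 192037 CPM in the WT mice of the Bin1 cohort and 185924, 188727, 185284 and 158503 CPM in the WT placebo mice of the Dnm2 cohort. All 10 markers were tested in both cohorts, and Acta1 was the most abundant of them.

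Levels were set between genes only per kilobase of exon. In WT placebo mice of the Dnm2 cohort the order, in mean CPM per kilobase with the SD over 4 mice, was Scn4b (128 ± 16.8), Scn4a (67.8 ± 15.4), Clcn1 (48.9 ± 8.49), Kcnj11 (40.4 ± 8.08), Kcnj2 (8.83 ± 2.31) and Kcnn3 (0.516 ± 0.133). Neighbours in that order whose intervals of 1 SD met were Scn4a with Clcn1 and Clcn1 with Kcnj11. In S619L/+ placebo mice the order of these levels per kilobase was Scn4b (87.3 ± 21.8), Scn4a (42.4 ± 7.68), Kcnj11 (37.6 ± 5.25), Clcn1 (30.7 ± 3.77), Kcnj2 (8.18 ± 1.38) and Kcnn3 (2.39 ± 0.722). There, Scn4a with Kcnj11 and Kcnj11 with Clcn1 did not differ beyond that spread. WT mice of the Bin1 cohort had the order Scn4b (142 ± 23.0), Scn4a (78.2 ± 11.6), Kcnj11 (63.2 ± 3.31), Clcn1 (43.5 ± 5.53), Kcnj2 (5.59 ± 1.81) and Kcnn3 (0.802 ± 0.257), with no neighbours whose intervals met. The cohorts were normalized separately and differ in library protocol, so the levels of one are not on the scale of the other. Kcnn3 was the lowest of the 6 in each of these groups, also in S619L/+ mice.

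**Figure D1:**
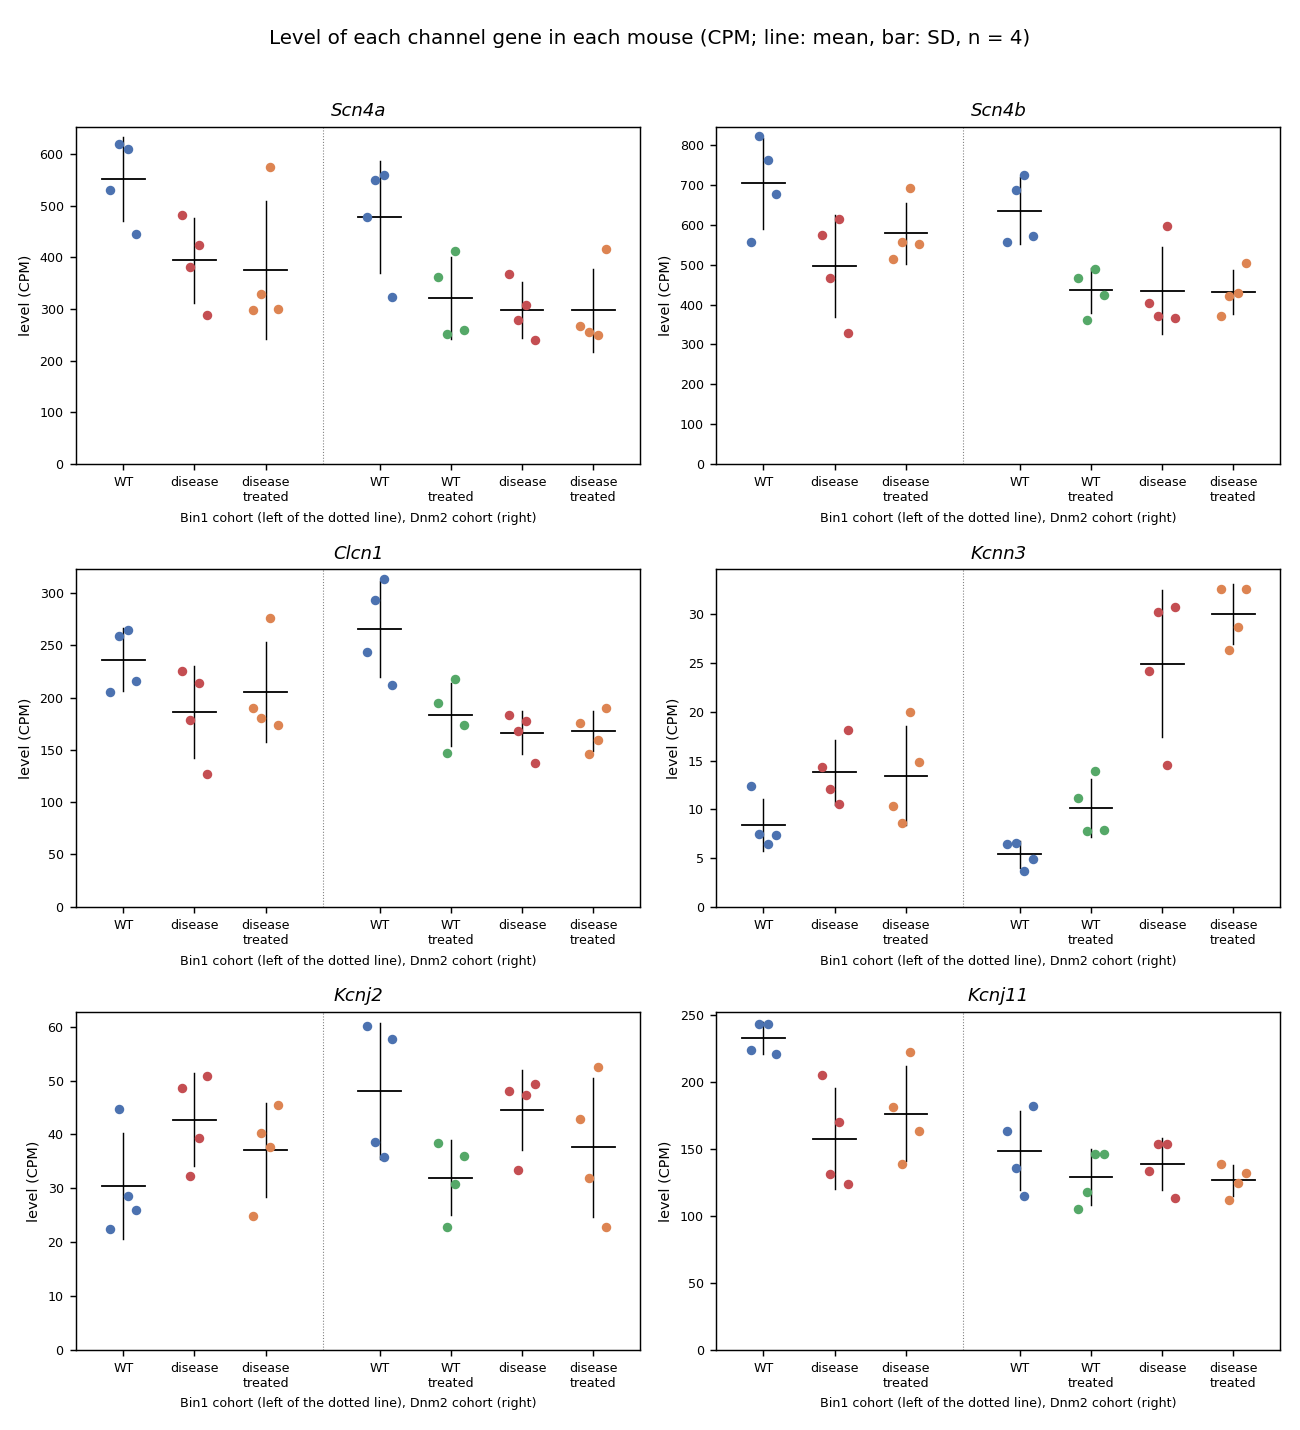
Level of each of the 6 channel genes in each of the 28 mice, in CPM on the vertical axis, with the 7 groups on the horizontal axis; points are mice, lines are means and bars are SDs of 4 mice. Kcnn3 in S619L/+ placebo mice lies between 14.5 and 30.8 CPM, above the 3.64 to 6.56 CPM of the WT placebo mice of that cohort.

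Scn4a encodes the pore-forming alpha subunit Nav1.4, the main sodium channel of adult fibers. Its level was 477, 549, 559 and 324 CPM in the WT placebo mice of the Dnm2 cohort and 368, 278, 308 and 239.5 CPM in the S619L/+ placebo mice. WT mouse 4 was the low animal of its group and fell within the S619L/+ range, so the groups overlapped through that mouse. WT mice on tamoxifen had 361, 251, 413 and 259.6 CPM and S619L/+ mice on tamoxifen 268, 254, 249.9 and 417 CPM. In the latter group mouse 4 stood apart from the other 3 and reached above WT placebo mouse 4. The log2 fold change of S619L/+ over WT on placebo was -0.68 (± 0.218 SE, adjusted p 0.0373), which was called. With each mouse of the cohort left out in turn that adjusted p ran from 0.0137 to 0.118, and it was above the threshold without WT placebo mouse 1, 2 or 3 or S619L/+ placebo mouse 2, 3 or 4. The call was also lost with no filter on low counts (adjusted p 0.0808) and with the mouse number as a block (adjusted p 0.0548). For S619L/+ on tamoxifen over WT placebo the log2 fold change was -0.68 (± 0.218 SE, adjusted p 0.0284). That call was lost without WT placebo mouse 1, 2 or 3 or S619L/+ tamoxifen mouse 1, 2 or 3, with adjusted p from 0.00422 to 0.0958, and again with no filter (0.0658) or the block (0.0521). With the marker scaling this fold change was -0.24 (adjusted p 0.323) and not called. Tamoxifen against placebo in WT mice gave -0.57 (± 0.218 SE, adjusted p 0.0620), which did not pass, but passed without WT placebo mouse 4, WT tamoxifen mouse 3 or S619L/+ tamoxifen mouse 4 (adjusted p from 0.0218 to 0.174) and in DESeq2 (adjusted p 0.0336). Tamoxifen against placebo in S619L/+ mice gave -0.01 (adjusted p 0.992), and the interaction of genotype with tamoxifen was 0.57 (± 0.307 SE, adjusted p 0.449), so the tamoxifen effect was not shown to differ between genotypes.

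Scn4a in the Bin1 cohort was at 530.1, 619.9, 609 and 444 CPM in WT mice, 482, 380.5, 425 and 288 CPM in mck-/- placebo mice and 298, 328, 574 and 299.9 CPM in mck-/- mice on tamoxifen. Mouse 1 of the mck-/- placebo group lay above WT mouse 8, and mouse 3 of the tamoxifen group lay among the WT mice while the other 3 lay below all of them. The log2 fold change of mck-/- over WT on placebo was -0.48 (adjusted p 0.221) and that of tamoxifen over placebo in mck-/- mice -0.07 (adjusted p 0.886). For mck-/- on tamoxifen over WT it was -0.55 (adjusted p 0.252), which passed without mck-/- tamoxifen mouse 3, the smallest adjusted p with a mouse left out being 0.0263. The disease effect in the Dnm2 cohort minus that in the Bin1 cohort was -0.20 (adjusted p 0.835), so a call in one cohort and none in the other did not show a difference. In order of mean CPM with SD the groups of the Dnm2 cohort were WT placebo (477 ± 109), WT tamoxifen (321 ± 79.0), S619L/+ placebo (298 ± 54.1) and S619L/+ tamoxifen (297 ± 80.1), and intervals of 1 SD met between all neighbours. Those of the Bin1 cohort were WT (551 ± 81.5), mck-/- placebo (394 ± 82.1) and mck-/- tamoxifen (375 ± 133), where they also met between neighbours.

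Scn4b encodes a beta subunit, a single-pass membrane protein that modifies the gating of sodium channel alpha subunits. WT placebo mice of the Dnm2 cohort had 558, 689, 725 and 571 CPM, and S619L/+ placebo mice had 404, 372, 596 and 368 CPM. The groups overlapped through S619L/+ mouse 3, which lay among the WT mice while the other 3 lay below all of them. WT mice on tamoxifen had 466, 361, 490.4 and 425 CPM and S619L/+ mice on tamoxifen 372, 423, 429.6 and 505 CPM, and every mouse of both groups lay below every WT placebo mouse. S619L/+ over WT on placebo gave -0.55 (± 0.160 SE, adjusted p 0.0235) on the log2 scale. It was not called without WT placebo mouse 2 or 3 or S619L/+ placebo mouse 1, 2 or 4, with adjusted p from 0.00153 to 0.0877. Tamoxifen over placebo in WT mice gave -0.55 (± 0.160 SE, adjusted p 0.0195), which was lost without WT placebo mouse 2 or 3 or WT tamoxifen mouse 2 (adjusted p from 0.00535 to 0.0693). S619L/+ on tamoxifen over WT placebo gave -0.56 (± 0.160 SE, adjusted p 0.0169), lost without WT placebo mouse 2 or 3 or S619L/+ tamoxifen mouse 1 (adjusted p from 0.00484 to 0.0642). Tamoxifen in S619L/+ mice left a difference of -0.01 (adjusted p 0.983), and the interaction was 0.54 (± 0.226 SE, adjusted p 0.322).

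The Bin1 cohort had Scn4b at 559, 823, 762 and 678 CPM in WT mice, 576, 468, 615 and 329.9 CPM in mck-/- placebo mice and 515, 557, 692 and 552 CPM in mck-/- mice on tamoxifen. WT mouse 5 was the lowest of its group and lay within the range of both mck-/- groups, and mck-/- placebo mouse 4 was the lowest of all. None of the log2 fold changes passed, at -0.50 (adjusted p 0.134) for mck-/- over WT on placebo, 0.22 (adjusted p 0.520) for tamoxifen in mck-/- mice and -0.28 (adjusted p 0.491) for mck-/- on tamoxifen over WT. The difference between the disease effects of the cohorts was -0.05 (adjusted p 0.960). Mean CPM with SD ran in the order WT placebo (636 ± 83.8), WT tamoxifen (436 ± 56.8), S619L/+ placebo (435 ± 109) and S619L/+ tamoxifen (432 ± 54.9) in the Dnm2 cohort, the last 3 within 1 SD. The order in the Bin1 cohort was WT (705 ± 114), mck-/- tamoxifen (579 ± 77.5) and mck-/- placebo (497 ± 128), with intervals of 1 SD that met between neighbours.

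Clcn1 encodes the chloride channel that carries most of the resting conductance of the fiber membrane and steadies it after an action potential. Its level was 243, 293, 313 and 212 CPM in WT placebo mice of the Dnm2 cohort and 183, 168, 177 and 137 CPM in S619L/+ placebo mice. Every S619L/+ mouse lay below every WT mouse. It was 195, 147, 218 and 174 CPM in WT mice on tamoxifen and 176, 146, 159.5 and 189.9 CPM in S619L/+ mice on tamoxifen. The S619L/+ mice on tamoxifen lay below all WT placebo mice, and of the WT mice on tamoxifen only mouse 3 reached above the lowest WT placebo mouse, mouse 4. Clcn1 fell by 0.67 on the log2 scale in S619L/+ over WT mice on placebo (± 0.146 SE, adjusted p 0.00484). It was also lower in WT mice on tamoxifen than on placebo, at -0.53 (± 0.146 SE, adjusted p 0.0138), and in S619L/+ mice on tamoxifen than in WT mice on placebo, at -0.66 (± 0.146 SE, adjusted p 0.00413). With each mouse left out in turn the first and the last of these stayed called (adjusted p from 0.00275 to 0.0255 and from 0.00244 to 0.0204). The tamoxifen effect in WT mice was not called without WT placebo mouse 2 or 3 or WT tamoxifen mouse 2 (adjusted p from 0.00728 to 0.0568). In S619L/+ mice tamoxifen against placebo gave 0.01 (adjusted p 0.973) and the interaction 0.55 (± 0.206 SE, adjusted p 0.283).

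Clcn1 in the Bin1 cohort was at 206, 259, 265 and 216 CPM in WT mice, 225, 179, 214 and 127 CPM in mck-/- placebo mice and 190.1, 181, 276 and 174 CPM in mck-/- mice on tamoxifen. The groups overlapped, with mck-/- placebo mouse 4 lowest and mck-/- tamoxifen mouse 3 highest of all 12. The log2 fold changes were -0.34 (adjusted p 0.313) for mck-/- over WT on placebo, 0.14 (adjusted p 0.704) for tamoxifen in mck-/- mice and -0.20 (adjusted p 0.647) for mck-/- on tamoxifen over WT, and none passed. The disease effects of the cohorts differed by -0.34 (adjusted p 0.571). Group means with SD in the Dnm2 cohort were, in order, WT placebo (265 ± 46.1), WT tamoxifen (183 ± 30.1), S619L/+ tamoxifen (168 ± 19.1) and S619L/+ placebo (166 ± 20.4) CPM, the last 3 within 1 SD. For the Bin1 cohort they were WT (236 ± 30.0), mck-/- tamoxifen (205 ± 47.7) and mck-/- placebo (186 ± 44.1) CPM, with intervals of 1 SD that met between neighbours.

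Kcnn3 encodes SK3, a small-conductance potassium channel opened by calcium that appears in immature and denervated fibers. Its level was 6.45, 6.56, 3.64 and 4.91 CPM in WT placebo mice of the Dnm2 cohort and 24.2, 30.2, 14.5 and 30.8 CPM in S619L/+ placebo mice. All S619L/+ mice lay above all WT mice, with mouse 3 the lowest of them. WT mice on tamoxifen had 11.2, 7.73, 13.9 and 7.83 CPM and S619L/+ mice on tamoxifen had 32.6, 26.3, 28.7 and 32.6 CPM. Both tamoxifen groups lay above every WT placebo mouse, and the S619L/+ mice of either diet lay above every WT mouse of either diet. Kcnn3 rose in S619L/+ over WT mice on placebo, by 2.17 (± 0.249 SE, adjusted p 5.97e-05) on the log2 scale. Its 95% interval, by a normal approximation that is narrower than the edgeR test would give, was 1.68 to 2.66. Kcnn3 also rose with tamoxifen in WT mice, by 0.88 (± 0.244 SE, adjusted p 0.0151), and in S619L/+ mice on tamoxifen over WT placebo mice, by 2.44 (± 0.251 SE, adjusted p 5.35e-05). Each of these calls held with any 1 mouse left out, the adjusted p running from 4.89e-06 to 0.000337, from 0.00535 to 0.0456 and from 6.54e-06 to 0.000335. Tamoxifen over placebo in S619L/+ mice gave 0.27 (adjusted p 0.509), with overlap between the groups. The interaction was -0.61 (± 0.337 SE, adjusted p 0.457), so the tamoxifen effect on Kcnn3 was not shown to differ between WT and S619L/+ mice.

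The Kcnn3 level in the Bin1 cohort was at 12.4, 7.44, 6.43 and 7.32 CPM in WT mice, 14.4, 12.1, 10.5 and 18.2 CPM in mck-/- placebo mice and 10.4, 8.61, 20.0 and 14.8 CPM in mck-/- mice on tamoxifen. WT mouse 5 stood above the other WT mice and within both mck-/- groups, while the other 3 WT mice lay below every mck-/- mouse. The log2 fold changes were 0.71 (± 0.273 SE, adjusted p 0.164) for mck-/- over WT on placebo, -0.04 (adjusted p 0.954) for tamoxifen in mck-/- mice and 0.67 (adjusted p 0.277) for mck-/- on tamoxifen over WT. None passed. The disease effect on Kcnn3 in the Dnm2 cohort minus that in the Bin1 cohort was 1.45 (± 0.381 SE, adjusted p 0.0949), which did not pass in edgeR but passed in DESeq2 (adjusted p 0.0187). It passed in edgeR without S619L/+ placebo mouse 3, the adjusted p running from 0.0291 to 0.218 with each mouse left out. The tamoxifen effect in S619L/+ mice minus that in mck-/- mice was 0.34 (adjusted p 0.618). Mean CPM with SD ordered the Dnm2 cohort as S619L/+ tamoxifen (30.1 ± 3.09), S619L/+ placebo (24.9 ± 7.55), WT tamoxifen (10.2 ± 2.97) and WT placebo (5.39 ± 1.39), the first pair within 1 SD. The Bin1 cohort was ordered as mck-/- placebo (13.8 ± 3.32), mck-/- tamoxifen (13.4 ± 5.08) and WT (8.38 ± 2.68), whose neighbours had intervals of 1 SD that met.

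Kcnj2 encodes Kir2.1, an inward rectifier that holds the resting potential and takes up potassium from the tubules. WT placebo mice of the Dnm2 cohort had 60.1, 38.7, 35.9 and 57.7 CPM, S619L/+ placebo mice 48.1, 33.3, 47.3 and 49.3 CPM, WT mice on tamoxifen 38.4, 22.7, 30.7 and 36.0 CPM and S619L/+ mice on tamoxifen 42.9, 31.9, 52.6 and 22.9 CPM. The WT placebo mice formed a higher pair, mice 1 and 4, and a lower pair, and every other group overlapped them. The log2 fold changes were -0.12 (adjusted p 0.770) for S619L/+ over WT on placebo, -0.24 (adjusted p 0.572) for tamoxifen in S619L/+ mice and -0.36 (adjusted p 0.286) for S619L/+ on tamoxifen over WT placebo. Tamoxifen in WT mice gave -0.59 (± 0.246 SE, adjusted p 0.0849), which passed only without S619L/+ tamoxifen mouse 4, a mouse outside the comparison that enters the spread of the fit (adjusted p from 0.0446 to 0.229). The interaction was 0.35 (adjusted p 0.726). The Bin1 cohort had Kcnj2 at 22.4, 44.7, 28.6 and 26.0 CPM in WT mice, 48.7, 32.2, 39.4 and 50.8 CPM in mck-/- placebo mice and 24.9, 40.3, 37.7 and 45.4 CPM in mck-/- mice on tamoxifen. WT mouse 6 was high in its group, and the other 3 WT mice lay below every mck-/- placebo mouse. The log2 fold changes there were 0.49 (adjusted p 0.254) for mck-/- over WT on placebo, -0.20 (adjusted p 0.656) for tamoxifen in mck-/- mice and 0.29 (adjusted p 0.601) for mck-/- on tamoxifen over WT. Group means with SD were 48.1 ± 12.6, 44.5 ± 7.49, 37.6 ± 12.9 and 32.0 ± 6.94 CPM for WT placebo, S619L/+ placebo, S619L/+ tamoxifen and WT tamoxifen, and 42.8 ± 8.61, 37.1 ± 8.75 and 30.4 ± 9.85 CPM for mck-/- placebo, mck-/- tamoxifen and WT, with intervals of 1 SD that met between all neighbours.

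Kcnj11 encodes Kir6.2, the pore of the potassium channel that ATP closes and that links membrane potential to the energy state of the fiber. In the WT mice of the Bin1 cohort it was at 223, 243, 243 and 221 CPM, in mck-/- placebo mice at 205, 131, 169.8 and 123 CPM and in mck-/- mice on tamoxifen at 181, 138, 222 and 163 CPM. All mck-/- placebo mice lay below all WT mice, and of the mck-/- mice on tamoxifen only mouse 3 reached the WT range. The log2 fold change of mck-/- over WT on placebo was -0.56 (± 0.165 SE, adjusted p 0.0739), which missed the threshold. It passed without mck-/- tamoxifen mouse 2 or 3, which are outside the comparison but enter the spread of the fit (adjusted p from 0.0435 to 0.221 with each mouse left out). It also passed in DESeq2 (adjusted p 0.0223), with no filter (0.0374) and with only the groups compared (0.0254). Tamoxifen in mck-/- mice gave 0.16 (adjusted p 0.613), and mck-/- on tamoxifen over WT gave -0.40 (adjusted p 0.275). In the Dnm2 cohort Kcnj11 was at 163, 135, 114 and 181 CPM in WT placebo mice, 133, 153, 153 and 113 CPM in S619L/+ placebo mice, 105, 118, 146 and 146 CPM in WT mice on tamoxifen and 138, 111, 125 and 131 CPM in S619L/+ mice on tamoxifen, and all of these groups overlapped. None of the log2 fold changes of this cohort passed, at -0.10 (adjusted p 0.650) for S619L/+ over WT on placebo, -0.21 (adjusted p 0.323) for tamoxifen in WT mice, -0.13 (adjusted p 0.636) for tamoxifen in S619L/+ mice and -0.23 (adjusted p 0.260) for S619L/+ on tamoxifen over WT placebo. The interaction was 0.08 (adjusted p 0.921) and the difference between the disease effects of the cohorts 0.45 (adjusted p 0.389). Group means with SD were 149 ± 29.7, 138 ± 19.3, 129 ± 20.6 and 126 ± 11.5 CPM for WT placebo, S619L/+ placebo, WT tamoxifen and S619L/+ tamoxifen mice, neighbours meeting within 1 SD. They were 233 ± 12.2, 176 ± 35.3 and 157 ± 37.6 CPM for WT, mck-/- tamoxifen and mck-/- placebo mice, of which only the last pair met.

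**Figure D2:**
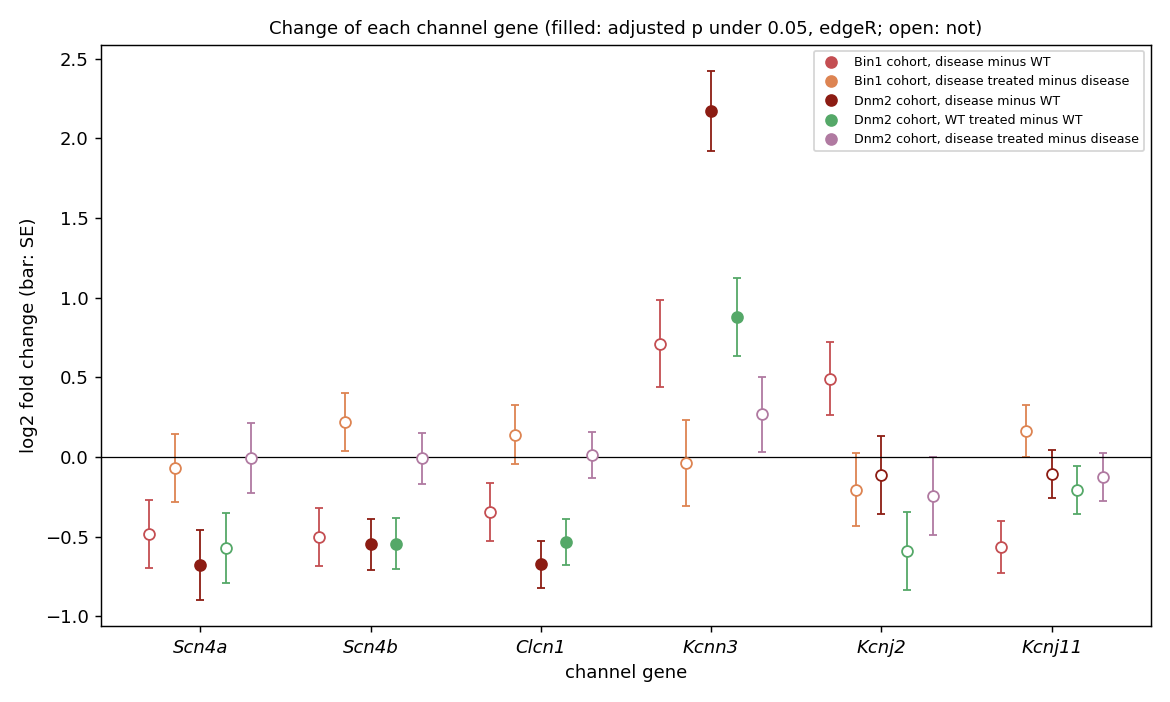
Log2 fold change of each channel gene, with its SE as a bar, in the disease and tamoxifen comparisons of both cohorts; filled points passed the edgeR adjusted p of 0.05. Kcnn3 stands at 2.17 in S619L/+ over WT mice on placebo, and Scn4a, Scn4b and Clcn1 lie between -0.68 and -0.55 in the same comparison.

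Counted over the members, 4 of 6 were called between S619L/+ and WT mice on placebo, where 21.9% of the 15439 genes tested were called. Kcnn3 was the 1 called higher, beside 12.1% of all genes, and Scn4a, Scn4b and Clcn1 were the 3 called lower, beside 9.81%. The count was 2 (Clcn1 and Kcnn3) without WT placebo mouse 2 or 3 or S619L/+ placebo mouse 2 or 4, and 3 (without Scn4a) with no filter or the replicate block. Tamoxifen against placebo in WT mice called 3 of 6, 1 higher (Kcnn3) and 2 lower (Scn4b and Clcn1), where 27.7% of all genes were called, 15.8% higher and 11.9% lower. That count was 1 (Kcnn3) without WT placebo mouse 2 or 3 or WT tamoxifen mouse 2, and 5 (with Scn4a and Kcnj2 added) without S619L/+ tamoxifen mouse 4. DESeq2 called 4 members, with Scn4a added, beside 4914 of all 15439 genes. S619L/+ on tamoxifen against WT placebo called 4 of 6, where 28.9% of all genes were called, 2 without WT placebo mouse 2 or 3 or S619L/+ tamoxifen mouse 1, and 3 (without Scn4a) with no filter or the replicate block. The genes called among all tested were 3383 in the first of these comparisons (2034 without WT placebo mouse 2), 4273 in the second (2769 without WT tamoxifen mouse 2) and 4461 in the last (2954 without S619L/+ tamoxifen mouse 3). These 3 comparisons share the WT placebo mice, so their values are not independent of each other.

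Tamoxifen against placebo in S619L/+ mice called 0 of the 6 members in edgeR, where 8.26% of all genes were called (5.22% higher, 3.04% lower), with 0 at an unadjusted p under 0.05 and 0 in DESeq2. The interaction called 0 (0.259% of all genes), with 2 members, Scn4b and Clcn1, at an unadjusted p under 0.05 and 0 in DESeq2. Between mck-/- and WT mice on placebo edgeR called 0 (2.61% of the 14841 genes tested, 1.99% higher and 0.627% lower), with 4, namely Scn4a, Scn4b, Kcnn3 and Kcnj11, at an unadjusted p under 0.05 and 1, Kcnj11, in DESeq2. It called 1, Kcnj11, without mck-/- tamoxifen mouse 2 or 3. For tamoxifen in mck-/- mice edgeR called 0 (3.13% of all genes, 1.52% higher and 1.61% lower), with 0 at an unadjusted p under 0.05 and 0 in DESeq2. For mck-/- on tamoxifen against WT edgeR called 0 (0.849%), with 3, namely Scn4a, Kcnn3 and Kcnj11, at an unadjusted p under 0.05 and 0 in DESeq2, and it called 1, Scn4a, without mck-/- tamoxifen mouse 3. The difference between the disease effects of the cohorts called 0 in edgeR (0.312% of 16036 genes), with 1, Kcnn3, at an unadjusted p under 0.05 and 1, Kcnn3, in DESeq2, and edgeR called 1, Kcnn3, without S619L/+ placebo mouse 3. The difference between the tamoxifen effects of the disease groups called 0 in edgeR (1.71%), 0 at an unadjusted p under 0.05 and 0 in DESeq2. The percentages here are those of edgeR at an adjusted p under 0.05. The share of all genes at an unadjusted p under 0.05 was not counted, so those counts have no background beside them. DESeq2 called 1191 of 14841 genes between mck-/- and WT mice on placebo, and 225 of 16036 for the difference between the disease effects. The median log2 fold change over the 6 members was -0.33 between S619L/+ and WT on placebo (all genes tested 0.02), -0.54 for tamoxifen in WT mice (all -0.04) and -0.01 for tamoxifen in S619L/+ mice (all -0.03). It was -0.41 between mck-/- and WT on placebo (all 0.01) and 0.05 for tamoxifen in mck-/- mice (all -0.00064).

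The number of all genes called beside these counts of 0 changed by over 1.5 times under several alternatives and without single mice. For tamoxifen in S619L/+ mice it was 1276 and became 814 with no filter, 849 with the replicate block, 30 with only the groups compared, 368 without S619L/+ tamoxifen mouse 3, 406 without S619L/+ tamoxifen mouse 2, 554 without S619L/+ placebo mouse 2, 767 without S619L/+ placebo mouse 4, 800 without S619L/+ tamoxifen mouse 1 and 2562 without S619L/+ tamoxifen mouse 4. Between mck-/- and WT mice on placebo it was 388 and became 773 with myofiber scaling, 1458 with only the groups compared, 1191 with DESeq2, 18 without WT mouse 8, 26 without WT mouse 6, 58 without mck-/- placebo mouse 4, 89 without WT mouse 7, 97 without mck-/- placebo mouse 2, 105 without mck-/- placebo mouse 1, 207 without WT mouse 5, 623 without mck-/- tamoxifen mouse 4, 683 without mck-/- tamoxifen mouse 3, 728 without mck-/- placebo mouse 3 and 759 without mck-/- tamoxifen mouse 2. For tamoxifen in mck-/- mice the 464 became 1549 with myofiber scaling, 122 with only the groups compared, 152 with the replicate block added to that fit of only the groups compared, 1216 with DESeq2, 160 without mck-/- tamoxifen mouse 3, 179 without mck-/- placebo mouse 1, 193 without mck-/- placebo mouse 4, 198 without mck-/- placebo mouse 2, 252 without mck-/- tamoxifen mouse 4 and 1253 without mck-/- tamoxifen mouse 2. The 126 for mck-/- on tamoxifen over WT became 56 with myofiber scaling, 210 with no filter, 544 with DESeq2, 42 without WT mouse 5, 44 without WT mouse 6, 48 without mck-/- tamoxifen mouse 4, 51 without WT mouse 8, 53 without WT mouse 7 and 266 without mck-/- tamoxifen mouse 3. For the interaction the 40 became 3 with myofiber scaling, 10 with the replicate block, 16 with the filter at 90% of mice, 327 with DESeq2, 20 with RLE, and leaving out a mouse moved it this far for 14 of 16 mice, from 1 without WT tamoxifen mouse 1 to 293 without S619L/+ placebo mouse 3. The difference between disease effects had 50, which became 11 with myofiber scaling, 86 with only the groups compared, 225 with DESeq2, and moved this far for 11 of 28 mice, from 13 without WT placebo mouse 3 to 154 without S619L/+ placebo mouse 3. That between tamoxifen effects had 274, which became 3791 with myofiber scaling, 63 with no filter, 2 with only the groups compared, 492 with the filter at 90% of mice, 1269 with DESeq2, and moved for 20 of 28 mice, from 6 without S619L/+ tamoxifen mouse 2 to 2195 without mck-/- tamoxifen mouse 2.

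Bulk tissue RNA mixes cell types, so fewer cells of a type and less RNA per cell cannot be told apart. Scaling the libraries by the 10 myofiber markers in place of TMM moved the median log2 fold change of all genes tested from 0.02 to 0.25 between S619L/+ and WT mice on placebo, and the genes called higher from 1868 of 3383 to 2515 of 2808. On that scale Clcn1 was at -0.44 and Kcnn3 at 2.44, both called, while Scn4a at -0.43 and Scn4b at -0.33 were not, and Kcnj2 (0.14) and Kcnj11 (0.09) changed sign. For tamoxifen in WT mice it moved the median of all genes from -0.04 to 0.35 and the genes called higher from 2440 of 4273 to 3979 of 4072. Kcnn3 remained called at 1.29, Scn4b at -0.14 and Clcn1 at -0.13 were not called, and Kcnj11 changed sign to 0.16. For S619L/+ on tamoxifen over WT placebo the median of all genes moved from 0.01 to 0.46 and the genes called higher from 2435 of 4461 to 6072 of 6265, and 1 member, Kcnn3, was called at 2.90. Scn4a at -0.24, Scn4b at -0.097 and Clcn1 at -0.20 were not called there. For tamoxifen in S619L/+ mice the median moved from -0.03 to 0.19 and the genes called higher from 806 of 1276 to 831 of 903, with no member called. In the Bin1 cohort the median moved from 0.01 to 0.37 between mck-/- and WT mice on placebo, and the genes called higher from 295 of 388 to 743 of 773. There Kcnn3 at 1.08 and Kcnj2 at 0.89 were called. For tamoxifen in mck-/- mice the median of all genes moved to -0.39 and the genes called higher from 225 of 464 to 78 of 1549, with no member called.

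Partners and counterparts of the members were read in the 2 placebo comparisons of disease with WT. Abcc8, which encodes the sulfonylurea receptor SUR1, was higher in S619L/+ than in WT mice, by 1.18 (adjusted p 0.0400) on the log2 scale, and was no longer called without WT placebo mouse 2 or 3, WT tamoxifen mouse 3, S619L/+ placebo mouse 1 or 2 or S619L/+ tamoxifen mouse 1 (adjusted p from 0.0252 to 0.131), with no filter (0.0901) or with only the groups compared (0.0867). Abcc9, which encodes SUR2, the usual partner of Kcnj11 in muscle, was lower at -0.54 (adjusted p 0.0167), lost without WT placebo mouse 2 or 3 (adjusted p from 0.00741 to 0.0592) and under myofiber scaling (0.195). Kcnn2, the SK2 relative of Kcnn3, was lower at -0.90 (adjusted p 0.0168), lost without S619L/+ placebo mouse 2 or 4 (adjusted p from 0.000350 to 0.0527) and under myofiber scaling (0.0727). Bin1 was higher at 0.81 (adjusted p 0.00177). Not called were the inward rectifier genes Kcnj12 at -0.33 (adjusted p 0.235) and Kcnj8 at -0.79 (adjusted p 0.0708), Kcnn1 at -0.18 (adjusted p 0.267), the large-conductance channel gene Kcnma1 at 0.14 (adjusted p 0.473) and Dnm2 at 0.10 (adjusted p 0.344). Without S619L/+ placebo mouse 3, Kcnj8 was called (smallest adjusted p 0.0258), as it was in DESeq2 (adjusted p 0.0358). Between mck-/- and WT mice on placebo only Bin1 was called, at -3.26 (adjusted p 7.11e-10). Further values were -0.37 for Kcnj12, -0.09 for Kcnj8, -0.47 for Abcc8, -0.26 for Abcc9, -0.22 for Kcnn1, -0.59 for Kcnn2, 0.58 for Kcnma1 and 0.13 for Dnm2. Of these Kcnma1 was called without WT mouse 5 (smallest adjusted p 0.0248).

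Related genes were counted in 5 comparisons: S619L/+ over WT on placebo, tamoxifen over placebo in WT mice, tamoxifen over placebo in S619L/+ mice, mck-/- over WT on placebo, and tamoxifen over placebo in mck-/- mice. The median log2 fold changes of all genes tested in that order were 0.02, -0.04, -0.03, 0.01 and -0.00064. The share of all genes tested that was called higher and lower was 12.1 and 9.81%, 15.8 and 11.9%, 5.22 and 3.04%, 1.99 and 0.627%, and 1.52 and 1.61%, and the counts of each list below and of the cell type markers are read beside these shares. Of 12 further sodium channel genes, 7 were tested, with medians of 0.40, 0.09, -0.31, 0.32 and -0.90 in the same order. S619L/+ over WT called 2 of them higher, Scn2a at 1.65 (adjusted p 0.00845) and Scn3a at 0.99 (adjusted p 0.0175), mck-/- over WT called 1 higher, Scn7a at 1.19 (adjusted p 0.0456), and the other comparisons called 0. Of 10 further chloride channel genes, 8 were tested, with medians of -0.09, 0.06, 0.05, 0.0017 and -0.11. In S619L/+ over WT mice 1 was called higher, and 2 lower, Clcn4 at -0.42 (adjusted p 0.00149) and Clcn6 at -0.33 (adjusted p 0.0344). In WT mice tamoxifen called 1 higher, Clcn5 at 1.03 (adjusted p 0.00806), and 2 lower, Clcn3 at -0.54 (adjusted p 0.0330) and Ostm1 at -0.23 (adjusted p 0.0429), and the other 3 comparisons called 0 in edgeR. With a mouse left out, S619L/+ over WT lost the calls of Scn3a (WT placebo mouse 1 or S619L/+ placebo mouse 4, 0.0622) and Clcn6 (any 1 of 6 mice, 0.132), each given with the mouse and the highest adjusted p reached. Tamoxifen in WT mice so lost Clcn3 (any 1 of 4 mice, 0.115) and Ostm1 (any 1 of 9 mice, 0.123). Mck-/- over WT so lost Scn7a (any 1 of 8 mice, 0.169). Of the calls named in this paragraph, other alternatives lost Clcn4 (myofiber scaling) and Clcn6 (myofiber scaling, no filter, the replicate block and only the groups compared) for S619L/+ over WT, Clcn3 (myofiber scaling and only the groups compared) and Ostm1 (myofiber scaling, no filter, the replicate block, only the groups compared and the filter at 90% of mice) for tamoxifen in WT mice.

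Among 15 further inward rectifier genes and sulfonylurea receptor genes, 6 were tested in the Dnm2 cohort and 5 in the Bin1 cohort, with medians of -0.43, 0.37, 0.02, -0.37 and 0.25. Called between S619L/+ and WT mice were 1 higher and 1 lower, the Abcc8 and Abcc9 given above. With tamoxifen, WT mice had 2 called higher, Kcnj15 at 2.65 (adjusted p 0.00709) and Abcc8 at 1.11 (adjusted p 0.0418), and 1 lower, Abcc9 at -0.46 (adjusted p 0.0290), and tamoxifen in S619L/+ mice called 1 higher, Kcnj15 at 3.59 (adjusted p 0.00759). Among 8 further calcium-activated potassium channel genes, 6 and 5 were tested, with medians of -0.09, -0.13, -0.11, -0.16 and -0.16. S619L/+ over WT called 1 higher, Kcnn4 at 2.52 (adjusted p 0.00520), and Kcnn2 lower, tamoxifen in WT mice called 1 higher, Kcnmb4 at 1.83 (adjusted p 0.0149), and 1 lower, Kcnn1 at -0.50 (adjusted p 0.00467), and tamoxifen in mck-/- mice called 1 higher, Kcnn2 at 1.08 (adjusted p 0.0401). Of 34 voltage-gated potassium channel genes, 24 and 21 were tested, with medians of -0.38, 0.08, 0.13, -0.24 and 0.06. S619L/+ over WT called 2 higher, with Kcnq5 at 0.84 (adjusted p 0.00782) first, and 3 lower, the one with the smallest p being Kcng4 at -1.67 (adjusted p 0.0145). WT mice on tamoxifen had 5 called higher, with Kcnab1 at 1.84 (adjusted p 0.00182) and Kcnd1 at 1.92 (adjusted p 0.00192) first, and 2 lower. Tamoxifen in S619L/+ mice called 2 higher, Kcne4 at 2.24 (adjusted p 0.00719) and Kcnab1 at 1.53 (adjusted p 0.0186), and 1 lower. Comparing mck-/- with WT mice of the Bin1 cohort called 1 higher and 1 lower, the latter Kcng4 at -0.99 (adjusted p 0.0353), and tamoxifen in mck-/- mice called 1 lower. With a mouse left out, tamoxifen in WT mice lost the calls of Abcc9 (any 1 of 6 mice, 0.0986), Abcc8 (any 1 of 9 mice, 0.127) and Kcnmb4 (WT tamoxifen mouse 2, 0.0572), each given with the mouse and the highest adjusted p reached. Tamoxifen in S619L/+ mice so lost Kcnab1 (S619L/+ placebo mouse 2 or S619L/+ tamoxifen mouse 2 or S619L/+ tamoxifen mouse 3, 0.0742). Mck-/- over WT so lost Kcng4 (any 1 of 6 mice, 0.113). Tamoxifen in mck-/- mice so lost Kcnn2 (any 1 of 9 mice, 0.0992). Other alternatives also lost calls named here. S619L/+ over WT lost Kcng4 with no filter and with only the groups compared. Under myofiber scaling, tamoxifen in WT mice lost Abcc9 and Kcnn1. Abcc8 was lost there with no filter, with the replicate block and with only the groups compared. With only the groups compared, tamoxifen in S619L/+ mice lost Kcnj15, Kcne4 and Kcnab1. Mck-/- over WT lost Kcng4 with myofiber scaling and with no filter. For tamoxifen in mck-/- mice, myofiber scaling lost Kcnn2. Only the groups compared also lost Kcnn2 there, with or without the replicate block added to that fit.

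Of 14 two-pore potassium channel genes 6 were tested, with medians of 0.80, 1.20, 0.34, 0.32 and -0.64. Between S619L/+ and WT mice 3 were called higher, Kcnk5 at 1.89 (adjusted p 0.00509), Kcnk13 at 1.31 (adjusted p 0.0333) and Kcnk2 at 1.13 (adjusted p 0.0406), tamoxifen in WT mice called 4 higher, with Kcnk1 at 2.17 (adjusted p 0.00329), Kcnk6 at 1.12 (adjusted p 0.00659) and Kcnk2 at 1.36 (adjusted p 0.0134) first, and mck-/- over WT called 1 higher, Kcnk5 at 1.86 (adjusted p 0.0345). Of 15 genes of the sodium-potassium pump and its small regulators, 13 and 14 were tested, with medians of 0.08, -0.19, -0.10, 0.16 and -0.21. The only call between S619L/+ and WT mice was 1 lower. WT mice given tamoxifen had 2 called higher, with Fxyd5 at 1.71 (adjusted p 0.00320) first, and 3 lower, with Atp1b1 at -1.12 (adjusted p 0.000372) first. Tamoxifen in S619L/+ mice called 2 lower, Fxyd3 at -1.57 (adjusted p 0.0379) and Atp1b4 at -1.005 (adjusted p 0.0454), and tamoxifen in mck-/- mice called 2 lower, Atp1b4 at -1.76 (adjusted p 0.0186) and Atp1b1 at -0.83 (adjusted p 0.0460). Of 13 channel scaffold and regulator genes 12 were tested, with medians of -0.14, -0.19, -0.03, 0.12 and 0.07. S619L/+ over WT called 1 higher, Cav3 at 1.01 (adjusted p 0.000628), and 4 lower, with Nedd4l at -0.66 (adjusted p 0.00213) and Ank2 at -0.56 (adjusted p 0.0204) first. In WT mice tamoxifen called Sntb2 at 1.20 (adjusted p 0.00356) and Fgf13 at -0.28 (adjusted p 0.0410), tamoxifen in S619L/+ mice Sntb2 at 1.14 (adjusted p 0.0167) and Cav3 at -0.63 (adjusted p 0.0273), mck-/- over WT Cav3 at 0.63 (adjusted p 0.0427) and tamoxifen in mck-/- mice Nedd4l at 0.81 (adjusted p 0.0250). With a mouse left out, S619L/+ over WT lost the calls of Kcnk13 (any 1 of 5 mice, 0.139), Kcnk2 (any 1 of 6 mice, 0.120) and Ank2 (WT placebo mouse 2 or WT placebo mouse 3 or S619L/+ placebo mouse 2, 0.0752), each given with the mouse and the highest adjusted p reached. Tamoxifen in WT mice so lost Fgf13 (any 1 of 6 mice, 0.137). Tamoxifen in S619L/+ mice so lost Fxyd3 (any 1 of 4 mice, 0.137), Atp1b4 (any 1 of 11 mice, 0.147), Sntb2 (S619L/+ tamoxifen mouse 2 or S619L/+ tamoxifen mouse 3, 0.0685) and Cav3 (any 1 of 4 mice, 0.103). Mck-/- over WT so lost Kcnk5 (any 1 of 7 mice, 0.136) and Cav3 (any 1 of 8 mice, 0.155). Tamoxifen in mck-/- mice so lost Atp1b4 (mck-/- placebo mouse 1, 0.0513), Atp1b1 (any 1 of 9 mice, 0.118) and Nedd4l (mck-/- placebo mouse 4 or mck-/- tamoxifen mouse 3 or mck-/- tamoxifen mouse 4, 0.0769). The other alternatives lost, of the calls named, Kcnk13 (no filter and the replicate block) and Ank2 (myofiber scaling) for S619L/+ over WT, Fgf13 (myofiber scaling, no filter, only the groups compared and the filter at 90% of mice) for tamoxifen in WT mice, Fxyd3 (myofiber scaling, the replicate block and only the groups compared), Atp1b4 (myofiber scaling, no filter, the replicate block, only the groups compared and the filter at 90% of mice), Sntb2 (only the groups compared) and Cav3 (myofiber scaling, the replicate block and only the groups compared) for tamoxifen in S619L/+ mice. For tamoxifen in mck-/- mice, only the groups compared lost Atp1b4, and with or without the replicate block it lost Atp1b1 and Nedd4l. No filter also lost Atp1b1 there, and myofiber scaling Nedd4l. Kcnk13 in S619L/+ over WT had no value with the filter at 90% of mice or only the groups compared. Fxyd3 for tamoxifen in S619L/+ mice had none with that filter.

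Kcnn3 belongs with genes whose RNA rises in denervated muscle, and 11 other such genes were all tested. Their medians were 1.86, -0.52, -0.28, 1.44 and -1.19 in the 5 comparisons. S619L/+ mice had 7 of 11 called higher than in WT mice and 0 lower, beside 12.1 and 9.81% of all genes, with Runx1 at 3.36 (adjusted p 1.48e-05), Gadd45a at 1.86 (adjusted p 0.000115) and Myog at 2.83 (adjusted p 0.000391) first. The list was chosen with earlier results of these data known, so a count above those shares is not independent support. Tamoxifen in WT mice called 2 higher, Runx1 at 3.27 (adjusted p 9.19e-05) and Ncam1 at 2.29 (adjusted p 0.00159), and 2 lower, with Chrna1 at -1.86 (adjusted p 0.00131) first, of 11 in all and beside 15.8 and 11.9% of all genes, so these counts lie near the background. Tamoxifen in S619L/+ mice called 0. Between mck-/- and WT mice 3 were called higher, Myog at 2.26 (adjusted p 0.0135), Ncam1 at 1.97 (adjusted p 0.0366) and Runx1 at 2.37 (adjusted p 0.0452), and tamoxifen in mck-/- mice called 2 lower, Chrna1 at -1.19 (adjusted p 0.0197) and Chrnd at -2.67 (adjusted p 0.0214). With a mouse left out, mck-/- over WT lost the calls of Myog (WT mouse 6 or WT mouse 8, 0.0617), Ncam1 (any 1 of 8 mice, 0.121) and Runx1 (any 1 of 8 mice, 0.143), each given with the mouse and the highest adjusted p reached. Tamoxifen in mck-/- mice so lost Chrna1 (mck-/- placebo mouse 2 or mck-/- placebo mouse 4 or mck-/- tamoxifen mouse 3, 0.0645) and Chrnd (mck-/- tamoxifen mouse 3, 0.0791). Lost under other alternatives were Ncam1 (no filter) and Runx1 (no filter) for mck-/- over WT. For tamoxifen in mck-/- mice, only the groups compared lost Chrnd, and with or without the replicate block it lost Chrna1.

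Markers of cell types moved in the comparisons in which members were called, and their part in the members' differences was not tested. Between S619L/+ and WT mice on placebo, where 12.1% of all genes were called higher and 9.81% lower, the called markers were 5 of 5 slow fiber genes, 1 of 4 leukocyte genes tested and 2 of 4 cartilage and tendon genes higher. Called lower were 2 of 10 myofiber, 3 of 5 endothelium, 2 of 4 smooth muscle and 2 of 4 satellite cell genes, and of 4 pericyte genes 1 was higher and 2 lower. None of the fibroblast, bone, Schwann cell and nerve, cardiac muscle, neuron or adipocyte markers was called in edgeR. Mitochondrially encoded genes held 19.6, 23.6, 25.7 and 22.9% of the counts in WT placebo mice, 13.6, 14.0, 17.1 and 14.9% in S619L/+ placebo mice, 18.979, 17.7, 17.6 and 16.5% in WT mice on tamoxifen and 14.8, 16.5, 14.7 and 14.957% in S619L/+ mice on tamoxifen, so every WT placebo mouse lay above every other mouse of the cohort. The TMM factors of those groups were, in the same order of groups, 0.89967, 0.821, 0.812 and 0.888, next 1.06, 0.969, 0.993 and 1.11, next 1.07, 1.06, 1.01 and 1.02 and last 1.12, 1.16, 1.13 and 0.963, and every WT placebo mouse lay below every other mouse. The part of either in the members' differences was not tested. The myofiber markers summed to 147268, 180029, 164315 and 123954 CPM in S619L/+ placebo mice, against the WT values above. The slow fiber markers, of which Tnnt1 was the most abundant and none was at 0, summed to 35.7, 10.6, 19.2 and 27.971 CPM in WT placebo mice and 155, 256, 31.3 and 77.1 CPM in S619L/+ placebo mice. The endothelium markers, led by Cdh5 with none at 0, summed to 510.1, 393, 317 and 635 CPM and 208, 159, 427 and 138 CPM in the same groups. S619L/+ mouse 3, the highest of its group in Scn4b and the lowest in Kcnn3, had the lowest slow fiber sum and the highest endothelium sum of its group. Pericyte markers, led by Rgs5, summed to 876, 901, 882 and 1042 CPM in WT and 502, 429, 595 and 296 CPM in S619L/+ mice. Smooth muscle markers, led by Acta2, summed to 272, 233, 237 and 288 CPM in WT and 137, 133, 193 and 123 CPM in S619L/+ mice. Satellite cell markers, led by Vcam1, summed to 13.8, 16.3, 12.96 and 16.3 CPM in WT and 7.25, 5.61, 3.85 and 28.003 CPM in S619L/+ mice, with Calcr at 0 in 1 mouse of the cohort.

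Tamoxifen against placebo in WT mice called 5 of 5 fibroblast, 5 of 6 bone, 4 of 4 cartilage and tendon, 3 of 4 leukocyte and 1 of 1 tested neuron markers higher, and 1 of 10 myofiber and 1 of 4 smooth muscle markers lower, beside 15.8% of all genes higher and 11.9% lower. The other lists had no call in edgeR. Of these, satellite cell markers summed to 28.8, 37.5, 19.9 and 24.2 CPM in WT mice on tamoxifen, each above every WT placebo mouse. Pericyte markers summed to 805, 827, 711 and 719 CPM on tamoxifen, each below every WT placebo mouse. In WT mice on tamoxifen the fibroblast markers, led by Col3a1 with none at 0, summed to 12520.1, 17728, 9077 and 11242 CPM, against 1213, 1068, 891 and 1169 CPM on placebo. The bone markers, led by Mmp13, summed to 1631, 1852, 778 and 859 CPM on tamoxifen and 2.72, 1.41, 1.34 and 2.19 CPM on placebo, with Bglap at 0 in 5 of the 16 mice of the cohort and Ibsp and Sp7 each in 2. All tamoxifen mice lay above all placebo mice in both sums. The cartilage and tendon markers, led by Tnmd with Acan and Col2a1 at 0 in 2 mice of the cohort each, summed to 75.0, 97.8, 46.2 and 63.5 CPM on tamoxifen and 3.32, 1.07, 1.90 and 13.5 CPM on placebo. The leukocyte markers, led by Csf1r with Cd3e untested and at 0 in 1 mouse, summed to 114, 153, 58.3 and 76.1 CPM on tamoxifen and 29.2, 27.8, 17.5 and 19.7 CPM on placebo. The neuron markers, led by Tubb3, summed to 1.11, 1.77, 0.988 and 1.14 CPM on tamoxifen and 0.294, 0.537, 1.03 and 0.223 CPM on placebo, with Rbfox3 at 0 in 2, Syt1 in 7 and Snap25 in 9 mice. The myofiber markers summed to 123782, 124351, 140843 and 146855 CPM in WT mice on tamoxifen, each below every WT placebo mouse.

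S619L/+ on tamoxifen over WT placebo, which also called 4 members and 28.9% of all genes, called 5 of 5 fibroblast, 5 of 6 bone, 3 of 4 cartilage and tendon, 3 of 4 leukocyte and 2 of 5 slow fiber markers higher. It called 5 of 10 myofiber, 2 of 4 satellite cell, 1 of 5 endothelium, 1 of 4 smooth muscle and 1 of 4 pericyte markers lower, and none of the other lists in edgeR. S619L/+ mice on tamoxifen had cartilage and tendon sums of 29.0, 48.8, 54.3 and 11.6 CPM, leukocyte sums of 75.5, 84.2, 101 and 31.7 CPM and slow fiber sums of 107, 49.2, 42.4 and 91.5 CPM. Their endothelium markers summed to 349, 330.5, 295 and 261 CPM, smooth muscle markers to 198, 189.8, 249 and 133 CPM, pericyte markers to 626, 683, 597 and 439 CPM and satellite cell markers to 14.955, 25.3, 20.8 and 8.98 CPM. The WT placebo sums stand above, and the part of these markers was not tested.

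In S619L/+ mice tamoxifen called 5 of 6 bone, 3 of 5 fibroblast, 1 of 4 cartilage and tendon and 1 of 4 satellite cell markers higher, beside 5.22% of all genes, and none of the other lists in edgeR. S619L/+ mice on tamoxifen had fibroblast sums of 6643, 11039, 13663 and 1979 CPM, bone sums of 561, 1259, 1394 and 18.3 CPM and myofiber sums of 130592, 106740.4, 128092 and 173769 CPM. Mouse 4 had the lowest fibroblast and bone sums and the highest myofiber sum of the group, and it was also the highest of the group in Scn4a, Scn4b and Clcn1. It was highest in Kcnn3 as well, at 32.606 CPM against 32.577 CPM in mouse 1, and lowest in Kcnj2, at 22.9 CPM. S619L/+ placebo mice had fibroblast sums of 2148, 2251, 1667 and 1588 CPM and bone sums of 2.52, 2.78, 2.62 and 1.82 CPM. In the Bin1 cohort mck-/- over WT on placebo called 3 of 4 leukocyte, 1 of 4 smooth muscle and 2 of 3 tested adipocyte markers higher and 1 of 10 myofiber and 2 of 4 satellite cell markers lower, beside 1.99% of all genes higher and 0.627% lower. The leukocyte markers, led by Csf1r with Cd3e at 0 in 6 mice, summed to 19.6, 16.6, 16.9 and 12.5 CPM in WT and 47.7, 68.4, 44.9 and 90.3 CPM in mck-/- placebo mice, and the myofiber sums of mck-/- placebo mice were 176709, 147917, 156391 and 124086 CPM. Tamoxifen in mck-/- mice called 1 of 10 myofiber and 1 of 4 satellite cell markers higher and 3 of 5 Schwann cell and nerve, 1 of 4 smooth muscle and 1 of 3 adipocyte markers lower, beside 1.52% of all genes higher and 1.61% lower. The mck-/- mice on tamoxifen had myofiber sums of 188401, 150127, 232842 and 218094 CPM, with mouse 3, the highest of its group in Scn4a, Scn4b, Clcn1, Kcnn3 and Kcnj11, also highest in this sum. Mouse 2 of that group stood apart in bone markers, which summed to 1.92, 493, 0.349 and 0.110 CPM in the mck-/- mice on tamoxifen, 2.28, 2.09, 0.411 and 1.49 CPM in those on placebo and 0.727, 0.974, 0.672 and 0.512 CPM in WT mice. It was also highest in fibroblast markers, at 1631, 5779, 981 and 259 CPM, 1649, 2662, 1648 and 4092 CPM and 984, 895, 790.1 and 770.3 CPM in the same groups, and without it the genes called for tamoxifen in mck-/- mice rose from 464 to 1253. Of the cardiac muscle markers, Nppa and Nppb were at 0 in all 16 mice of the Dnm2 cohort and Nppb in all 12 of the Bin1 cohort, Myh6 being the most abundant, and the 2 markers tested were not called in any of these comparisons. The summed cardiac muscle level stayed between 3.12 and 14.0 CPM in all 28 mice.

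**Figure D3:**
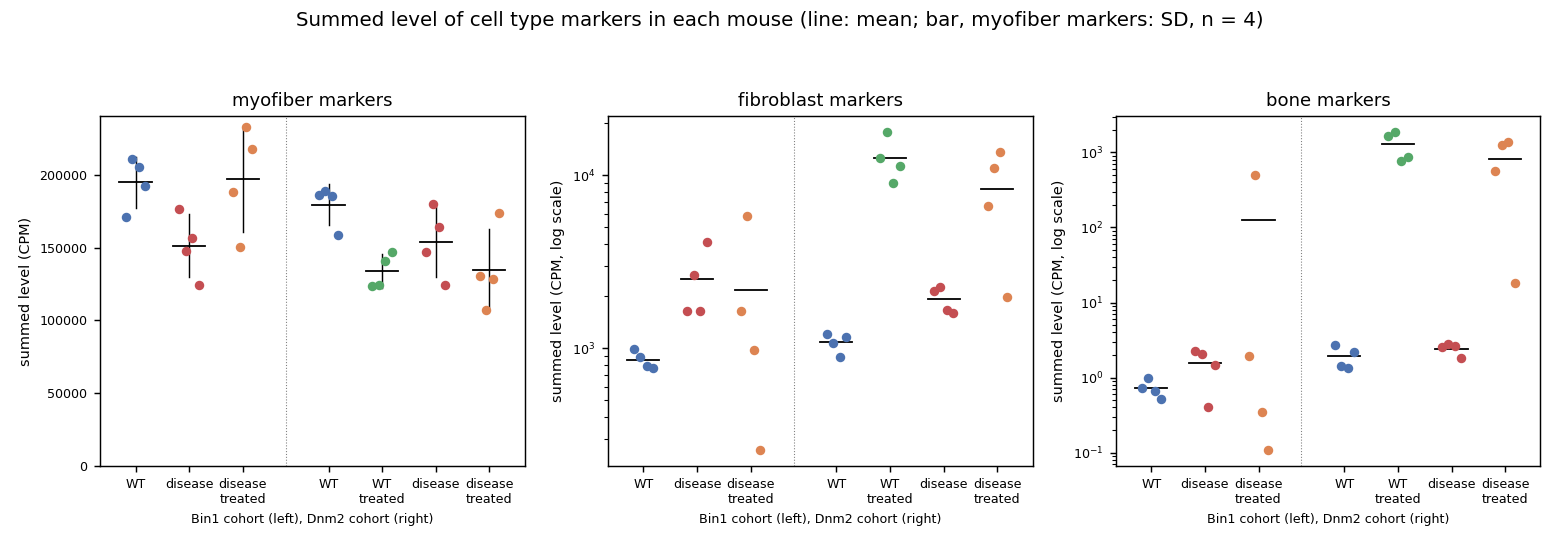
Summed level of cell type markers in each of the 28 mice, in CPM on the vertical axis (log scale except for myofiber markers), by group on the horizontal axis; points are mice and lines are means. The bone sum is 1631, 1852, 778 and 859 CPM in the WT mice on tamoxifen and at most 2.72 CPM in the WT placebo mice of the same cohort.

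Across mice, with the mean of each cohort subtracted, Pearson's r of the log2 CPM is given as a description, since the mice share groups, library scaling and diets. The r of Scn4a with Clcn1 was 0.911 over 28 mice, 0.933 over the 16 of the Dnm2 cohort and 0.879 over the 12 of the Bin1 cohort. Scn4b with Clcn1 had 0.889 over 28 mice, 0.864 over the 16 of the Dnm2 cohort and 0.929 over the 12 of the Bin1 cohort, and Scn4a with Scn4b had 0.797 over 28 mice, 0.812 over the 16 of the Dnm2 cohort and 0.780 over the 12 of the Bin1 cohort. These 3 genes of adult fibers thus varied together within either cohort. Kcnn3 ran opposite to them, with -0.600 over 28 mice, -0.667 over the 16 of the Dnm2 cohort and -0.569 over the 12 of the Bin1 cohort for Scn4b, -0.582 over 28 mice, -0.684 over the 16 of the Dnm2 cohort and -0.359 over the 12 of the Bin1 cohort for Clcn1 and -0.447 over 28 mice, -0.530 over the 16 of the Dnm2 cohort and -0.299 over the 12 of the Bin1 cohort for Scn4a. Kcnj11 varied with Scn4a in one cohort and little in the other, with 0.489 over 28 mice, 0.118 over the 16 of the Dnm2 cohort and 0.835 over the 12 of the Bin1 cohort. With Scn4b and Clcn1 it had 0.229 and 0.234 over the 16 of the Dnm2 cohort and 0.838 and 0.8685 over the 12 of the Bin1 cohort. In the Bin1 cohort Kcnj11 thus varied with all 3 of these genes. Kcnj2 had r between -0.0781 and 0.0210 with the other 5 members over 28 mice, which joins values that differ in sign between the cohorts. With Kcnj11 it had -0.0143 over 28 mice, 0.379 over the 16 of the Dnm2 cohort and -0.369 over the 12 of the Bin1 cohort, and with Kcnn3 0.0210 over 28 mice, -0.105 over the 16 of the Dnm2 cohort and 0.401 over the 12 of the Bin1 cohort.

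The genes most like each member were taken as the 3 with the highest r among 11197 genes over the 28 mice, on the same measure. For Scn4a they included Prpf8 (0.938) and Rps6ka2 (0.934). Scn4b had Osbpl6 (0.921), Pcyt1a (0.912) and Hrasls (0.904), and Clcn1 had Parp1 (0.938), Nek9 (0.926) and Pcyt1a (0.920), so Pcyt1a was listed for both. For Kcnn3 they were Tnfrsf23 (0.890), Atp13a3 (0.886) and Kcnq5 (0.885), the last a voltage-gated potassium channel gene. Within the cohorts the r of Tnfrsf23 with Kcnn3 was 0.946 in the Dnm2 cohort and 0.599 in the Bin1 cohort. Kcnj11 had Ankrd23 (0.862), Sema6c (0.836) and Zmiz2 (0.836). Kcnj2 had the lowest values of the 6 members, with Chmp4c (0.622), Dusp10 (0.602) and Dmrt2 (0.594).

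The promoters were read as the 250 bases before the start of each gene in the RefSeq table of build GRCm38.p6, which holds 5 of the 6 members and no entry for Kcnj11. The motifs and the promoters printed were chosen after the members' levels were known. Both strands were searched for the E-box CANNTG, the MEF2 motif (CTA and TAG with 4 bases between them), the Runt motif TGTGGT, the estrogen response element (GGTCA and TGACC with 3 bases between them) and the related hexamer TGACCT, the TATA motif TATAAA and a CArG-like pattern (CC and GG with 6 bases between them). Among 32536 distinct promoters of the same length, 66.2% held the E-box, 3.22% the MEF2 motif, 14.0% the Runt motif, 0.0645% the estrogen response element, 14.0% the hexamer, 12.3% the TATA motif and 67.3% the CArG-like pattern. The E-box was present in 2 of the 5 members, Clcn1 with 3 matches and Kcnj2 with 2, and the CArG-like pattern in 5 of 5. The MEF2, Runt and TATA motifs were each present in 1, Clcn1, and the estrogen response element and the hexamer in 0. Clcn1 and Kcnn3 are printed as the members called in opposite directions in S619L/+ mice that kept their call with any 1 mouse left out. Capitals mark matches to the E-box, MEF2 or Runt motif, at 125, 101 and 69 bases before the start for the E-boxes of Clcn1, 67 for the Runt motif, which overlaps the last E-box, and 51 for the MEF2 motif, which contains the TATA match. The Clcn1 window is chr6:42286435-42286684 on the plus strand and that of Kcnn3 chr3:89519914-89520163 on the plus strand, where none of these 3 motifs was present. A match is a description of letters and not a binding site.
Clcn1: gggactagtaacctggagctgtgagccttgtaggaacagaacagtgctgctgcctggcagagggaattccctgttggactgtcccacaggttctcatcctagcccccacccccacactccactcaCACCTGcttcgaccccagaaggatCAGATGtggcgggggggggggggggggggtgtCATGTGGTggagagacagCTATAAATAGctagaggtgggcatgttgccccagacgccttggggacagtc
Kcnn3: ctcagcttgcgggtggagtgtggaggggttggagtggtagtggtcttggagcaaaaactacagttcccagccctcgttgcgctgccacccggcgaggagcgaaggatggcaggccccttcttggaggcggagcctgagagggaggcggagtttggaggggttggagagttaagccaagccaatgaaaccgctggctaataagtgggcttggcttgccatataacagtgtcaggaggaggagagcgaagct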

How the data were processed

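The authors deposited raw counts of reads per Ensembl gene, 1 table per cohort, from strand-specific polyA libraries; the labels name bcl2fastq 2.20.0.422, cutadapt 1.10, Bowtie 1.2.2, STAR 2.5.3, HTSeq 0.6.1p1 and build mm39 without saying what each did. Counts of the Bin1 cohort include 4 lines for reads not assigned to a gene, a median of 23.9% of counts per library, which were left out. Symbols came from GENCODE M21, which named 52083 genes of each table; its exon unions gave gene lengths. Each cohort was fitted by itself in edgeR 4.0.16 under R 4.3.3 with filterByExpr, TMM, a robust quasi-likelihood fit with 1 term per group, a prior count of 2 for fold changes and Benjamini-Hochberg adjustment over all genes tested, with a threshold of 0.05. The contrasts between cohorts came from 1 fit of all 28 mice. The code was tested on simulated data. Depth per library and the smallest count of a member are given with the results.

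The alternatives were DESeq2 1.42.0, RLE size factors, size factors from the 10 myofiber markers, library sizes without mitochondrial genes, no filter beyond 1 count, a minimum of 10 reads to be exceeded by 90% of mice, only the groups compared, the replicate block, and leaving out each mouse.

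Genes named were the 6 members, 9 partners, up to 3 called genes with the smallest p per list and comparison, the 3 genes most like each member with a mean log2 CPM above 1, and the most abundant and undetected markers. Some planned genes, and 1 planned result with its alternatives, are not reported here; counts and medians of the lists include those genes. The lists were further sodium, chloride, inward rectifier and sulfonylurea receptor, calcium-activated, voltage-gated and two-pore potassium channel genes, pump, scaffold and denervation genes, and 14 cell type marker lists. Members and lists were chosen with earlier results of these data known. Partners were limited to the placebo comparisons of disease with WT after their values in the other comparisons had been seen. Promoter motifs were matched as letters on both strands.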

Additional observations from a re-analysis of the deposited data

Results flagged for a closer look

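In each group of 4 mice the highest and lowest value of each member was set against its nearest neighbour, and a mouse was picked out when that gap took up most of the range of its group by Dixon's test at the 95% level. Chance picks out about 1 in 20 groups, and 42 groups were examined, of which 5 had such a mouse. Scn4a was at 417 CPM in S619L/+ tamoxifen mouse 4, far above the other 3 mice of its group. It was at 574 CPM in mck-/- tamoxifen mouse 3, again far above the others. In the same mouse Clcn1 was at 276 CPM, the highest of the Bin1 cohort. Scn4b was at 596 CPM in S619L/+ placebo mouse 3, above the other 3 mice of its group. Kcnj2 was at 33.3 CPM in S619L/+ placebo mouse 2, below the others of its group.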

How the results depend on the processing

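The 10 counts of members called and their fold changes were recomputed under the alternatives, except as follows. Only the groups compared is the same fit for the interaction. The replicate block was not run for the differences between cohorts or for comparisons with the WT mice of the Bin1 cohort. For tamoxifen in mck-/- mice the block was fitted to only the groups compared, without the WT mice. The cause of any change was not tested. For tamoxifen in S619L/+ mice, the interaction, tamoxifen in mck-/- mice and the difference between tamoxifen effects, the count of members called was 0 under every alternative run. No filter also lost Scn4a for S619L/+ over WT and S619L/+ on tamoxifen over WT placebo, and DESeq2 gained it for tamoxifen in WT mice. Myofiber scaling gave 2 members called for S619L/+ over WT, 1 for tamoxifen in WT mice, 1 for S619L/+ on tamoxifen over WT placebo and 2 for mck-/- over WT. For mck-/- over WT, DESeq2, no filter and only the groups compared each gave 1, Kcnj11, and DESeq2 gave 1, Kcnn3, for the difference between disease effects. Myofiber scaling also reversed log2 fold changes: to 0.14 for Kcnj2, 0.089 for Kcnj11 and 0.038 for Kcnn1 (S619L/+ over WT), to 0.16 for Kcnj11, 0.16 for Ostm1 and 0.12 for Fgf13 (tamoxifen in WT mice), to 0.19 for Scn4a, 0.23 for Scn4b and 0.12 for Kcnj11 (tamoxifen in S619L/+ mice), to 0.12 for Kcnj2 and 0.21 for Kcnj11 (S619L/+ on tamoxifen over WT placebo) and to -0.043 for Kcnj11 (interaction). It reversed Kcnj8 to 0.26, Abcc9 to 0.10 and Kcnn1 to 0.11 (mck-/- over WT), Scn4b to -0.15, Clcn1 to -0.24 and Kcnj11 to -0.23 (tamoxifen in mck-/- mice), and Scn4b to 0.40, Clcn1 to 0.50, Kcnj2 to 0.62 and Kcnj11 to 0.37 (difference between tamoxifen effects). Medians of all genes under this scaling were -0.17 for the interaction, -0.12 for the difference between disease effects and 0.60 for that between tamoxifen effects, where genes called higher moved from 169 of 274 to 3738 of 3791. For tamoxifen in S619L/+ mice Scn4a turned to 0.0047 with DESeq2, 0.0047 with RLE, 0.0088 with the filter at 90% of mice and 0.034 with only the groups compared, and Scn4b to 0.0015, 0.0015, 0.0080 and 0.031. Kcnj2 turned to 0.0023 without the filter in the difference between tamoxifen effects. Leaving out each mouse gave 2 to 4 members called for S619L/+ over WT, 1 to 5 for tamoxifen in WT mice, 2 to 4 for S619L/+ on tamoxifen over WT placebo, and 0 to 1 for mck-/- over WT, for mck-/- on tamoxifen over WT and for the difference between disease effects. Log2 fold changes that reversed with a mouse left out ran from -0.21 to 0.010 for Kcnj2 and -0.19 to 0.0044 for Kcnj11 (S619L/+ over WT), from -0.21 to 0.11 for Scn4a, -0.092 to 0.18 for Scn4b and -0.070 to 0.074 for Clcn1 (tamoxifen in S619L/+ mice), and from -0.029 to 0.17 for Kcnj11 (interaction). They ran from -0.35 to 0.044 for Scn4a, -0.035 to 0.25 for Clcn1 and -0.29 to 0.13 for Kcnn3 (tamoxifen in mck-/- mice), from -0.27 to 0.071 for Scn4b (difference between disease effects), and from -0.11 to 0.38 for Scn4a, -0.32 to 0.0058 for Scn4b, -0.20 to 0.086 for Clcn1 and -0.22 to 0.17 for Kcnj2 (difference between tamoxifen effects). Of the members' fold changes, 951 with a mouse left out and 405 under the other alternatives kept their direction and side of the threshold, 47 and 27 changed direction, 26 and 11 lost a call, and 8 and 7 gained one. This tally does not measure how firm the calls are. Most of these fold changes were not called in the main fit, and many mice left out were outside the comparison. Library sizes without mitochondrial genes were scaled again by TMM, which left values nearly unchanged (-0.67752 against -0.67767 for Scn4a, S619L/+ over WT).

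The labels do not say whether mouse numbers mark pairs. Over 28 pairs of same-numbered mice r ran from -0.325 to 0.335, and 10 pairs had r over 0.1. Of 24 mice, 7 correlated best with a mouse of their own number. These values, from deviations around means of 4 mice, did not show pairs but cannot exclude them. With the replicate block, 3 members were called for S619L/+ over WT (Scn4a lost), 3 for tamoxifen in WT mice and 3 for S619L/+ on tamoxifen over WT placebo (Scn4a lost), and Scn4a (0.023) and Scn4b (0.014) changed sign for tamoxifen in S619L/+ mice; the cause was not tested. The block could not be fitted within the Bin1 cohort for comparisons with its WT mice, which carry other numbers. With 4 mice a group, sex not given and each protocol tied to a cohort, levels cannot be set across cohorts, and no protein or current was measured.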
